A study of Mus musculus with 2 samples.

Results

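The ribosome biogenesis genes are a group of 38 genes whose products transcribe ribosomal RNA, process it and assemble the ribosomal subunits in the nucleolus. They were chosen by symbol from the gene table of the matrices, where all 38 were found among 32285 genes, and all 38 had UMIs in the Phf6 knockout (KO) library and in the wild-type (WT) library. UMIs are unique molecular identifiers, so each counts 1 captured RNA molecule.

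RNA polymerase I transcribes a long precursor RNA from the ribosomal DNA repeats. Small nucleolar ribonucleoproteins (snoRNPs) guide its chemical modification, with box C/D particles adding methyl groups and box H/ACA particles making pseudouridines, while the small subunit processome and several large subunit assembly complexes fold and cut it. The pathway is among the best known targets of MYC, is tied to cell growth, and matters in blood because inherited defects of ribosome production cause anaemias with a shortage of red cell precursors.

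The KO library came from Phf6 KO mouse bone marrow cells and the WT library from Phf6 WT cells. Both kinds of cell received a vector with the RUNX1-S291fs mutant and GFP, and the GFP+ fraction was sorted and transplanted. The cells profiled were GFP+Lin- cells, which lack surface markers of mature lineages, sorted from the marrow of the recipients 8 weeks later. Both groups therefore share the RUNX1 mutant, and no group without it is compared here. The labels do not give the deleted part of Phf6 or how many mice each library pooled. With 1 library per genotype there is no error between mice, no test was possible, and every interval below covers counting error only.

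After filtering there were 4709 KO cells, with 109940825 UMIs in all and a median per cell of 21357, and 4478 WT cells, with 118858971 and a median of 24762. Phf6 stood at 20.5 counts per 1000000 UMIs (CPM) in the KO library and 41.6 CPM in the WT library, a log2 ratio of -1.02 (95% interval -1.09 to -0.95), so RNA from the locus was still counted in the KO library. The progenitor marker Kit had UMIs in 64.2% of KO cells and 62.9% of WT cells, while the T cell marker Cd3e had them in 0.0212% and 0.0447% and the neutrophil surface marker Ly6g in 0.127% and 0.112%. The sorted cells still held a plasma cell-like cluster of 5 KO and 56 WT cells and a T or NK cell-like cluster of 16 KO and 28 WT cells. The libraries shared 10 cell barcodes, of which 7 passed the filters in both.

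Cells were clustered with the members left out of the variable genes, and clusters took a class name with the ending "-like" only where markers of that class led them. The haematopoietic stem and multipotent progenitor-like class (HSC/MPP-like) held 1498 KO and 1060 WT cells. The other named classes together, called committed cells here, held 2256 KO and 2356 WT cells. The committed cells include the plasma cell-like and the T or NK cell-like cluster. In the main contrast the members' RNA took a smaller share of UMIs in the KO library than in the WT library, at 0.521% and 0.637%. The summed level was 5208 CPM in KO cells and 6372 CPM in WT cells, a log2 ratio of -0.29 (-0.30 to -0.29). Single members spanned log2 ratios of -0.43 to -0.01.

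Across lineages, the erythroid-like cells stood far above the other named classes. In these cells, which expressed haemoglobin, Ermap and Rhd, the members took 1.11% of UMIs in the KO library and 1.25% in the WT library. The next named class in order was neutrophil progenitor-like in the KO library, at 0.535%, and HSC/MPP-like in the WT library, at 0.586%. The KO level of HSC/MPP-like cells was 0.489%, and the WT level of neutrophil progenitor-like cells 0.557%. Monocyte-like cells had 0.440% in the KO library and 0.473% in the WT library, and megakaryocyte-like cells 0.392% and 0.486%. Basophil or mast cell-like cells were lowest of the 8 classes, at 0.262% and 0.252%, below B cell-like cells at 0.327% and 0.334% and dendritic cell-like cells at 0.367% and 0.420%. The counting intervals of these class levels do not overlap between any classes that neighbour each other in the order, and spread between animals is unknown. Clusters without a class name were left out of this order and of the committed cells. Some stood above the next named class: 0.713% (270 KO cells), 0.642% (342), 0.598% (138) and 0.684% (76) in the KO library. The same clusters had 0.796%, 0.649%, 0.660% and 0.946% in the WT library. The remaining ones were lower, at 0.159% and 0.372% in KO and 0.166% and 0.467% in WT.

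**Figure D1:**
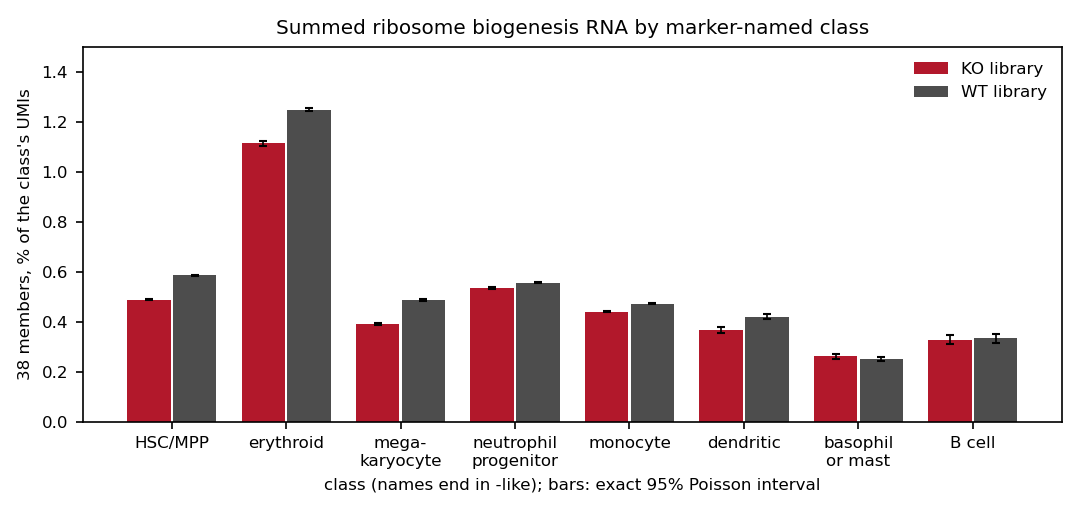
Share of a class's UMIs taken by the 38 ribosome biogenesis genes (y axis, percent) in 8 marker-named classes (x axis), for the KO library and the WT library, with exact 95% Poisson intervals. Erythroid-like cells reach 1.11% (KO) and 1.25% (WT), and basophil or mast cell-like cells are lowest.

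The erythroid maximum held gene by gene. Of the 38 members, 38 had their highest class level in erythroid-like cells in the KO library and 37 in the WT library. The exception was Tcof1, the treacle protein that tethers the Pol I machinery to ribosomal DNA, at 107 CPM in KO and 93.4 CPM in WT erythroid-like cells. Its WT maximum was in monocyte-like cells, at 97.2 CPM. The lowest class was basophil or mast cell-like for 25 members in the KO library and for 24 in the WT library. The highest class level of a member was a median of 4.48 times its lowest in the KO library and 4.49 times in the WT library.

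Ncl encodes nucleolin, an abundant nucleolar RNA-binding protein, and Npm1 encodes nucleophosmin, a nucleolar chaperone mutated in human myeloid leukaemia. Ncl reached 2142 CPM (2095 to 2189) in KO and 2419 CPM (2392 to 2446) in WT erythroid-like cells. In basophil or mast cell-like cells it stood at 357 CPM in KO and 368 CPM in WT. Npm1 was at 3378 CPM in KO and 3992 CPM in WT erythroid-like cells, against 818 and 717 CPM in the basophil or mast cell-like class. These 2 genes alone gave 44.4% of the members' UMIs in the KO library and 45.4% in the WT library. Over all cells, the members' mean of both libraries ranged from 13.7 to 1643 CPM with a median of 85.7 CPM. These are levels of 3′ tags, 1 per molecule, so transcript length does not enter them.

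**Figure D2:**
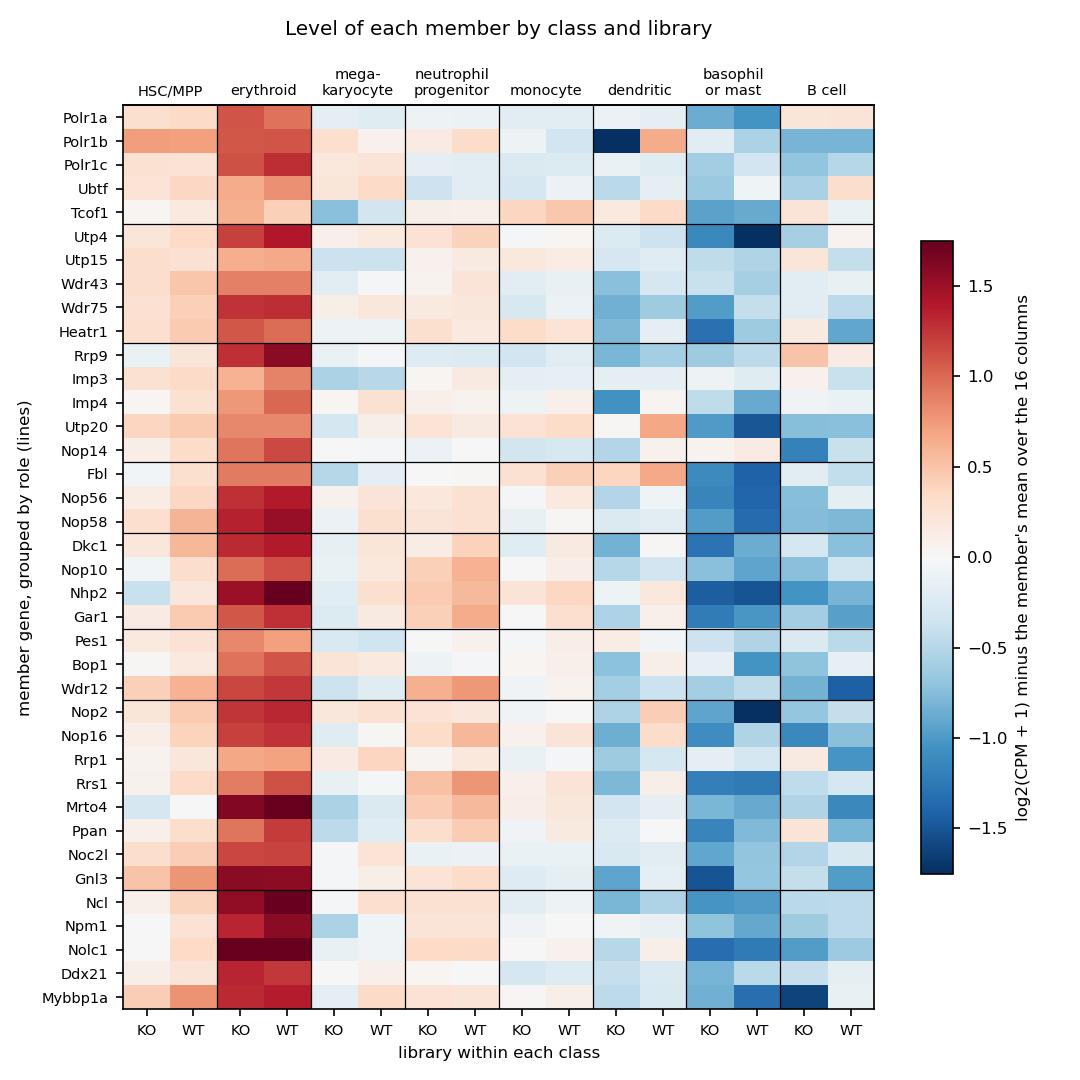
Level of each member (rows, grouped by role) in 8 classes with the KO column left of the WT column, as log2(CPM + 1) minus the member's own mean over the 16 columns (colour scale). The erythroid columns are the highest in both libraries for nearly every member, and single tiles of low-count members, such as Polr1b in dendritic cell-like cells, rest on few UMIs.

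Erythroid-like cells made up 1.40% of KO cells (66 of 4709, Clopper-Pearson interval 1.09 to 1.78) and 4.33% of WT cells (194 of 4478, 3.75 to 4.97). They gave 7.40% of all member UMIs in the KO library and 21.2% in the WT library. In a ratio summed over all cells, fewer cells of a class and less RNA per cell cannot be told apart. With the erythroid-like cells left out, which was tried once the data had been seen, the members' median log2 ratio over all cells was -0.15, against -0.22 with them.

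Over all cells, the ratio of KO over WT was below 0 for 38 of 38 members, where 38.6% of the 8579 genes with at least 10 CPM were below 0. The median member had a log2 ratio of -0.22, and the median gene 0.06. The interval lay below 0 for 36 members, against 28.0% of genes, and above 0 for none, against 48.9% of genes. No member passed 1.5-fold in either direction, which 3.23% of genes did. The ratios were thus small and of 1 sign, and 8.46% of genes lay below the members' median.

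Ordered by role, the box H/ACA core proteins stood lowest. The 4 members, which bind H/ACA guide RNAs and, in part, telomerase RNA, had a median log2 ratio of -0.39. Dkc1, the pseudouridine synthase dyskerin, was at 107 CPM (106 to 109) in KO and 145 CPM (143 to 147) in WT cells, a log2 ratio of -0.43 (-0.47 to -0.40). Nhp2 was at 176 CPM in KO and 236 CPM in WT cells, a ratio of -0.42 (-0.45 to -0.40). Gar1 (-0.35) and Nop10 (-0.31) complete the particle, and all 4 levels were lower in the KO library by more than their counting intervals.

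The multifunctional nucleolar proteins followed, with a median of -0.30. Ncl was at 843 CPM (837 to 848) in KO and 1079.7 CPM (1074 to 1086) in WT cells, a log2 ratio of -0.36 (-0.37 to -0.34). Npm1 was at 1471 and 1815 CPM, a ratio of -0.30. Nolc1, a shuttling chaperone of snoRNPs, had -0.35, Mybbp1a, a nucleolar MYB-binding protein, -0.29, and the helicase Ddx21 -0.20. The box C/D core, with the methyltransferase fibrillarin (Fbl, -0.21) and its partners Nop56 (-0.28) and Nop58 (-0.33), had a median of -0.28.

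Of the 8 other large subunit assembly factors, Mrto4, a homologue of a ribosomal stalk protein that occupies its site during assembly, was lowest, at 82.0 CPM in KO and 109 CPM in WT cells, with a ratio of -0.41 (-0.45 to -0.38). Their median was -0.28, and Nop2, an rRNA methyltransferase, was nearest to 0 at -0.17. Within the small subunit processome, the U3 snoRNP protein Rrp9 stood apart from its group's median of -0.25, at 22.0 CPM in KO and 29.5 CPM in WT cells, a ratio of -0.42 (-0.50 to -0.35). Imp3, which holds U3 to the precursor, had -0.14.

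The remaining roles had medians closer to 0. The 5 members of Pol I transcription had a median of -0.11, the 5 UTP-A and UTP-B factors, which bind the nascent precursor, -0.17, and the 3 proteins of the PeBoW complex of large subunit maturation -0.19. Utp15 was at 20.5 CPM (19.7 to 21.4) in KO and 20.8 CPM in WT cells, a ratio of -0.01 (-0.10 to 0.07). Polr1b, the second largest Pol I subunit, was at 13.4 CPM in KO and 14 CPM in WT cells (ratio -0.07, -0.17 to 0.04). These 2 members were the only ones whose interval over all cells included 0. Tcof1 (78.3 CPM in KO, 82.1 CPM in WT, ratio -0.07), Heatr1, a processome scaffold also needed for Pol I transcription (31.7 and 33.8 CPM, ratio -0.09), and Pes1, the PeBoW subunit named pescadillo (43.6 and 46.7 CPM, ratio -0.10), came next. No role's median was as high as the median of all genes.

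**Figure D3:**
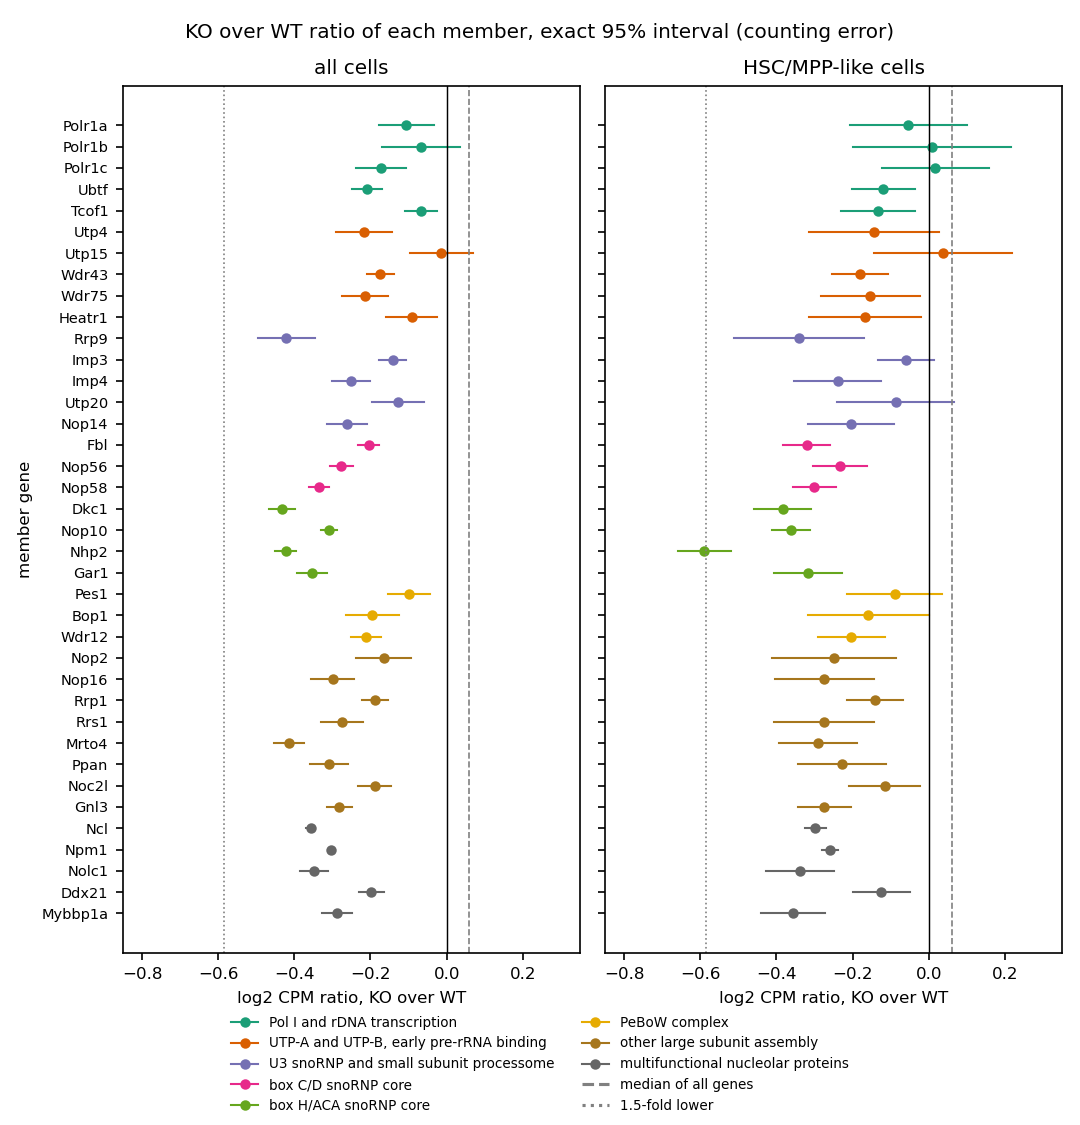
KO over WT log2 CPM ratio of each of the 38 members (rows, coloured by role) over all cells (left) and in HSC/MPP-like cells (right), with exact 95% intervals for counting error. All 38 points on the left lie below 0 and right of the dotted line at 1.5-fold lower, and on the right Nhp2 alone crosses that line.

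In HSC/MPP-like cells the members' median log2 ratio was also -0.22, where the median gene had 0.06. The summed level was 4891 CPM in KO and 5857 CPM in WT cells (-0.26, -0.27 to -0.25). Of the 38 members, 35 were below 0, as were 40.1% of 8628 genes, and 29 had an interval below 0, against 22.8% of genes. Nhp2 was the 1 member at least 1.5-fold lower, which 1.18% of genes were. It stood at 117 CPM (113 to 122) in KO and 177 CPM (171 to 182) in WT HSC/MPP-like cells, a log2 ratio of -0.59 (-0.66 to -0.52). This count of 1 became 0 with doublets kept, with phases or clusters weighted alike, or at a finer clustering.

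Dkc1 (109 CPM in KO, 142 CPM in WT, ratio -0.38), Nop10 (254 and 326 CPM, -0.36), Mybbp1a (87.7 and 112 CPM, -0.36) and Rrp9 (21.4 and 27.1 CPM, -0.34) were the next lowest. The box H/ACA core again had the lowest role median, at -0.37. At the other end were Utp15 (21.8 CPM in KO and 21.3 CPM in WT, 0.04, -0.14 to 0.22), Polr1c, a subunit shared by Pol I and Pol III (35.4 and 35.0 CPM, 0.02), and Polr1b (16.8 and 16.7 CPM, 0.01). Polr1a, the largest Pol I subunit (29.4 and 30.6 CPM, -0.05), and Imp3 (126 and 131 CPM, -0.06) followed. Each of these 5 intervals included 0.

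The median ratio of the members differed between the 4 HSC/MPP-like clusters. In the cluster led by Ror1, Tox and Hlf (722 KO and 318 WT cells) the members' median ratio was -0.06. In the cycling cluster, led by Pimreg and Nusap1 (257 and 246 cells), it was -0.34 with 29 intervals below 0, against 15.5% of genes. In the cluster led by the interferon-induced genes Iigp1 and Ifit1 (237 and 188 cells) it was -0.27. In the remaining cluster (282 and 308 cells) it was -0.10, with 6 intervals below 0, against 9.28% of genes. The difference between clusters was not tested.

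Over the 20 clusters with at least 50 cells in each library, the members' median was below 0 in 19 and below that of all genes in 19, from -0.44 to 0.00. The lowest was an unnamed cluster led by the mast cell genes Tpsb2 and Cma1 with Car1 (76 KO and 121 WT cells), where 7 members were at least 1.5-fold lower and 4.87% of genes were. A megakaryocyte-like cluster of 50 KO and 65 WT cells followed at -0.38, with 9 members at least 1.5-fold lower against 3.73% of genes. G1-called cells made up 56.3% of KO and 26.7% of WT cells in the Tpsb2 cluster, and none in the megakaryocyte-like one. The part of phase in the first was not tested.

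By class, the median ratio was -0.15 in megakaryocyte-like cells, with 21 intervals below 0 (14.7% of genes), and -0.10 in erythroid-like cells, with 16 (11.4% of genes). It was -0.10 in monocyte-like cells, with 19 of 37 members at 10 CPM (16.4% of genes), and -0.07 in neutrophil progenitor-like cells, with 13 (12.8% of genes). Members past 1.5-fold in these 4 classes numbered 0, where 6.35% of genes passed in erythroid-like, 2.85% in megakaryocyte-like, 1.89% in neutrophil progenitor-like and 1.68% in monocyte-like cells. In the small dendritic cell-like class (42 KO and 55 WT cells) the median was -0.25 and 12 of 37 members were at least 1.5-fold lower, where 12.3% of genes were. In all committed cells together it was -0.28, with 38 members below 0 (40.5% of genes) and 35 intervals below 0 (26.7% of genes). This pool holds the 66 KO and 194 WT erythroid-like cells, and without them the median was -0.07, with 34 of 37 members below 0 (36.2% of genes) and 19 intervals below 0 (16.5% of genes). The summed members then stood at 4521 CPM in KO and 4784 CPM in WT committed cells (-0.08), against a ratio of -0.33 with them. Basophil or mast cell-like and B cell-like cells had medians of 0.00 and -0.01. Ncl and Nop16, a large subunit factor, and Ubtf, the upstream binding factor of Pol I, were below 0 in all 8 classes.

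Markers of the erythroid class were also compared between libraries within other classes. The 12 erythroid markers summed to 550.2 CPM in KO and 584 CPM in WT HSC/MPP-like cells. Of the 12, 9 were lower in KO, with a median log2 ratio of -0.09, and none was at 0. Haemoglobin genes took 0.0116% of UMIs in KO and 0.0086% in WT HSC/MPP-like cells. Their share was lower in KO in megakaryocyte-like, monocyte-like and neutrophil progenitor-like cells. In erythroid-like cells the sums were 6490.5 CPM and 6541 CPM. In monocyte-like cells they were 117 and 124 CPM, with 9 of 12 markers lower in KO and a median log2 ratio of -0.58. In neutrophil progenitor-like cells they were 88.0 and 90.6 CPM, with 7 of 11 lower and a median of -0.35. In megakaryocyte-like cells they were 418 and 464 CPM, with 6 of 11 lower and a median of -0.02. The part of stray erythroid RNA in the members' ratios was not tested.

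Cell cycle phase moved with the members' level in both libraries. Phases were called on cells thinned to 5000 UMIs. Over all cells the members took 0.413% of UMIs in G1-called KO cells and 0.428% in G1-called WT cells. In S-called cells they took 0.607% in KO and 0.746% in WT, and in G2/M-called cells 0.506% in KO and 0.634% in WT. Over all cells, 38 of 38 members were higher in S than in G1 in each library, where 40.9% of genes in the KO library and 46.3% in the WT library were. The median log2 ratio of S over G1 was 0.39 in KO and 0.66 in WT cells, and that of G2/M over G1 0.10 and 0.37. These values include the erythroid-like cells, nearly all of them called S or G2/M. Within HSC/MPP-like cells S over G1 was 0.36 in KO and 0.44 in WT, and G2/M over G1 was -0.20 and -0.12.

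G1-called cells made up 70.1% of KO HSC/MPP-like cells and 55.4% of WT HSC/MPP-like cells, and 45.3% and 36.0% of all cells. Within G1, the KO over WT median of the members was -0.15 in HSC/MPP-like cells, with 18 intervals below 0 against 16.9% of genes. Within S it was -0.21 (19 intervals below 0, 10.8% of genes) and within G2/M -0.26 (24 intervals, 13.4% of genes). In committed cells the median was 0.06 in G1, where the median gene had 0.14, and 8 members had an interval above 0 and 1 below, against 44.4% and 6.64% of genes. It was -0.35 in S (34 intervals below 0, 30.3% of genes) and -0.31 in G2/M (35 intervals, 21.9% of genes). The S and G2/M values hold unequal numbers of erythroid-like cells, 28 KO and 103 WT cells in S and 38 KO and 85 WT cells in G2/M. Without them the median was -0.12 in S (22 intervals below 0, 18.9% of genes), -0.13 in G2/M (18 intervals, 14.7% of genes) and 0.05 in G1. Free RNA and depth enter the phase calls, and their part was not tested. The committed G1 cells also included 4 KO and 49 WT plasma cell-like cells. In that cluster the members took 0.0404% of UMIs in KO and 0.0838% in WT. Its part in the G1 values of committed cells was not tested.

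**Figure D4:**
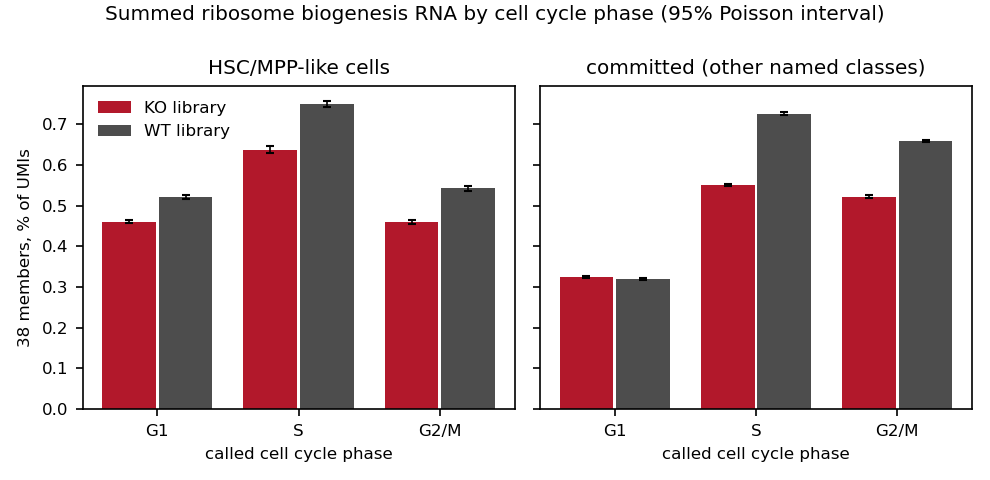
Share of UMIs taken by the 38 members (y axis, percent, with exact 95% Poisson intervals) by called phase in HSC/MPP-like cells (left) and committed cells (right), KO bars left of WT bars. KO is lower than WT in all phases except G1 of committed cells, at 0.325% in KO and 0.320% in WT. The committed S and G2/M bars include more erythroid-like cells in WT than in KO. The committed G1 bars include more plasma cell-like cells, which are low in the members, in WT (49) than in KO (4).

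How the stem-like and the committed level compared depended on which cells were pooled and on the scaling. In the KO library the members summed to 4891 CPM in HSC/MPP-like cells and 4929 CPM in committed cells, and in the WT library to 5857 and 6206 CPM. The median log2 ratio of HSC/MPP-like over committed was 0.06 in the KO library, where the median gene had 0.13, and -0.01 in the WT library, where it had 0.10. In KO, 24 members were above 0 and 14 below, against 58.8% and 41.2% of genes, with 1 at least 1.5-fold higher (22.7% of genes) and 1 lower (13.8% of genes). In WT, 18 were above 0 and 20 below, against 58.1% and 41.9% of genes, with 0 higher (17.5% of genes) and 1 lower (11.6% of genes). Without erythroid-like cells the median was 0.17 in KO, where the median gene had 0.15, and 0.33 in WT, where it had 0.14. As a mean per cell the members' median was 0.23 in KO and 0.25 in WT, where the median gene had 0.08 and 0.07. Median-of-ratios scaling moved every ratio of a library by the same amount and took the medians to -0.17 in KO and -0.16 in WT, so the order of members and roles does not depend on it, but the signs of values near 0 do.

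The roles were spread around these medians. The 5 Pol I members had a median of 0.34 in the KO library, where Tcof1 (-0.11) was below 0, and 0.21 in the WT library, where Tcof1 (-0.03) and Polr1c (-0.01) were. They were followed by UTP-A and UTP-B factors at 0.23 and 0.14. Polr1b had the largest ratio in both libraries: 16.8 CPM in HSC/MPP-like and 10.7 CPM in committed KO cells (0.64, 0.46 to 0.82), and 16.7 and 11.7 CPM in WT cells (0.51). Gnl3, encoding nucleostemin, a nucleolar GTPase found in stem cells, was at 131 CPM in HSC/MPP-like and 99.4 CPM in committed KO cells (0.40), and at 158 and 126 CPM in WT cells (0.33). Ubtf (0.39 in KO, 0.21 in WT), Imp3 (0.38 and 0.23), Wdr43, a UTP-A factor (0.35 and 0.31), and Mybbp1a (0.28 and 0.33) were also above 0, each with its interval above 0.

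The box H/ACA core had a median of -0.11 in the KO library and -0.10 in the WT library. Nhp2 was at 117 CPM in HSC/MPP-like and 192 CPM in committed KO cells (-0.71, -0.77 to -0.65), and at 177 and 253 CPM in WT cells (-0.52). Mrto4 was at 60.1 and 87.9 CPM in KO cells (-0.55) and at 73.5 and 120.2 CPM in WT cells (-0.71, -0.79 to -0.63). Nolc1 (-0.23 in KO, -0.27 in WT) and Nop10 (-0.21 and -0.12) were below 0 in both, as were Npm1 (-0.07 and -0.18) and Ncl (-0.04 and -0.16). Fbl was at -0.16 in KO and -0.03 in WT.

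Within G1 the classes separated. The members took 0.460% of UMIs in HSC/MPP-like cells and 0.325% in committed cells of the KO library, and 0.520% and 0.320% in the WT library. The median ratio was 0.54 in KO and 0.80 in WT, with 17 members at least 1.5-fold higher in KO (20.4% of genes) and 29 in WT (20.8% of genes). In S it was 0.26 and 0.11, and in G2/M -0.10 and -0.20. The committed G1 cells held 4 KO and 49 WT plasma cell-like cells, a cluster where the members took 0.0404% and 0.0838% of UMIs. The part of this cluster in the larger WT ratio within G1 was not tested. Among all 8 classes, HSC/MPP-like cells ranked second highest for 17 members in the KO library and for 25 in the WT library.

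Genes of the same pathway outside the 38 were counted by list, over those with at least 10 CPM. Of all 8579 such genes, 38.6% were below 0 in KO over WT over all cells and 3.23% passed 1.5-fold. Of 45 other small subunit factors, 37 were below 0 in KO over WT over all cells (median -0.10), with Lyar at 110 CPM in KO and 151 CPM in WT cells (-0.45) the lowest, then Noc4l (-0.42) and Bysl (-0.36). Of 53 other large subunit factors, 45 were below 0 (median -0.16), led by Wdr55 (-0.42), the helicase Ddx56 (-0.40) and Rrp15 (-0.34). Of 23 genes of rRNA decay and snoRNP assembly, 22 were below 0 (median -0.16), among them Snu13 (-0.30), a box C/D protein, and its assembly ATPases Ruvbl1 and Ruvbl2 (-0.26 each). Of 10 other Pol I genes, 5 were below 0 (median -0.06), and Polr1e (-0.35), Cd3eap (-0.24) and Polr1d (-0.23), all subunits of the polymerase, had the largest differences. None of the members of these 4 lists passed 1.5-fold.

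The snoRNA host transcripts had a median of -0.05, with 8 of 12 below 0 (38.6% of genes). Snhg3, at 77.2 CPM in KO and 116 CPM in WT cells, was the 1 of them past 1.5-fold (-0.59), which 3.23% of genes were. The cytosolic ribosomal protein genes differed less than the members: 70 of 82 were below 0 (38.6% of genes). Their median was -0.04, with 0 past 1.5-fold (3.23% of genes). Among cell cycle genes, the G1/S list stood at a median of -0.14 over all cells and -0.30 in HSC/MPP-like cells. In the latter 38 of 39 were below 0 (40.1% of genes) and 3 (Ung, Mcm2 and Nasp) at least 1.5-fold lower (1.18% of genes). G2/M genes had -0.09 and -0.12. Among p53 targets, which respond to failed ribosome assembly in cultured cells, 5 of 9 were below 0 over all cells (38.6% of genes). Their median was -0.01, with Cdkn1a at 0.27, Aen at -0.27 and Mdm2 at 0.22. In HSC/MPP-like cells 3 of 8 p53 targets were below 0, against 40.1% of genes. Trp53inp1 was at 36.2 CPM in KO and 18.1 CPM in WT cells (1.00), and Bax at 64.3 and 79.9 CPM (-0.31).

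Myc had another direction than the members over all cells and in HSC/MPP-like, erythroid-like, neutrophil progenitor-like and monocyte-like cells. It had the same direction in megakaryocyte-like and dendritic cell-like cells. Myc RNA was at 78.9 CPM in KO and 71.0 CPM in WT cells, a log2 ratio of 0.15 (0.11 to 0.20). In HSC/MPP-like cells it was at 102 CPM in KO and 77.6 CPM in WT cells (0.40, 0.31 to 0.49), and in committed cells at 47.8 and 48.4 CPM. In megakaryocyte-like cells it was at 11.0 CPM (9.12 to 13.1) in KO and 18.99 CPM (16.7 to 21.5) in WT cells. Erythroid-like cells had 102 CPM in KO and 87.4 CPM in WT, neutrophil progenitor-like cells 78.5 and 71.7 CPM, and monocyte-like cells 39.2 and 35.3 CPM. The KO and WT intervals overlapped in each of these classes. Dendritic cell-like cells had 17.6 and 26.1 CPM, from 15 KO and 33 WT UMIs. Basophil or mast cell-like and B cell-like cells had at most 21 Myc UMIs per library. Mxd4, whose protein competes with MYC for the partner MAX and represses, was at 49.7 CPM in KO and 32.5 CPM in WT cells (0.62), and at 90.02 and 51.0 CPM in HSC/MPP-like cells (0.82, 0.72 to 0.93). The paralogue Mycn was at 15.5 CPM in KO and 12.7 CPM in WT over all cells (0.28, 0.18 to 0.38), and Mga at 57.9 and 51.3 CPM (0.17). In HSC/MPP-like cells Mycn had a ratio of 0.08 (-0.07 to 0.23). Max was at 70.0 and 67.3 CPM over all cells (0.06). Of 9 genes of the Myc network with at least 10 CPM, 3 were below 0 over all cells, against 38.6% of genes. The level of Myc RNA gives no measure of MYC protein or of its binding.

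**Figure D5:**
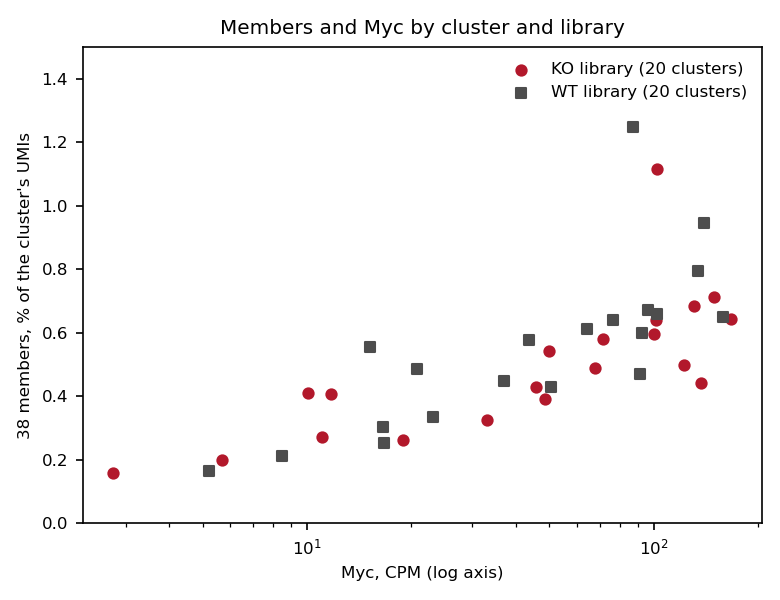
Share of UMIs taken by the 38 members (y axis, percent) against Myc level (x axis, CPM, log scale) for 20 clusters in the KO library and the same 20 in the WT library. Points rise together, and the pair above 1% is the erythroid-like cluster.

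Across clusters, though, the members tracked Myc. Over 40 points, 20 clusters in 2 libraries, the mean log2 level of the members correlated with that of Myc at Pearson r = 0.85. These points share libraries, depth and cell cycle state, so r is a description. The correlation was 0.75 with the summed G1/S genes, 0.34 with the G2/M genes, 0.65 with the ribosomal protein genes and 0.71 with the log2 UMIs per cell. Each member correlated with the mean of the other 37 at a median r of 0.89, over 0.8 for 33 of 38, from 0.67 for Utp15 to 0.97 for Nop58. Of 3136 other genes at 50 CPM or more, the 8 most like the members were the chaperonin subunit Cct3 (r = 0.96), C1qbp, Serbp1, Dnajc2, Lsm7, Pa2g4, Set and Znrd2 (r = 0.94). Cct3 was at 187 CPM in KO and 239 CPM in WT cells (-0.35). The choice used both libraries, so the KO over WT direction of these 8 genes is not independent of that of the members.

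Promoters were read for the E-box CACGTG, the core sequence that MYC and MAX bind. The RefSeq promoter table (GRCm38.p6) held 33 of the 38 members, with windows from 250 bases before to 50 after the start. The motif, which is its own reverse complement and so needs no second strand, lay in 7 of 33 members (21.2%) and in 8.09% of the 27025 genes of the table. Upstream of the start it lay in 2 of 33 members (6.06%) and in 6.86% of the genes. In Imp4 and Nop2 it lay upstream of the start, and in Utp4, Utp20, Pes1, Mybbp1a and Wdr43 after it. The 250 bases before the start of Imp4 (chr1:34439579-34439828, plus strand) and Nop2 (chr6:125131633-125131882, plus strand) are shown because they hold the motif upstream, with the motif in capitals.
Imp4: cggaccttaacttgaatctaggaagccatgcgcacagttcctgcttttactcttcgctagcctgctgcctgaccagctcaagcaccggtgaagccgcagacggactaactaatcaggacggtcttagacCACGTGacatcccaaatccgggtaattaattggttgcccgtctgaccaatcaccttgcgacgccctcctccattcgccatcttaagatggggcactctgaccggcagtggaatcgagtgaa
Nop2: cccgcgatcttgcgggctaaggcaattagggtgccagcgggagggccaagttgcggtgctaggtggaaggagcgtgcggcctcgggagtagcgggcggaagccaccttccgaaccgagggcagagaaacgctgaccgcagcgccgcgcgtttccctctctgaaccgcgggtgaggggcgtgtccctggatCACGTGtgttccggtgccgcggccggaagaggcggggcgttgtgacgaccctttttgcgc
Imp4, a U3 snoRNP protein, had a KO over WT ratio of -0.25 over all cells, and Nop2 one of -0.17.

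The stretches around the motif after the start are shown for comparison of its neighbouring bases, again with the motif in capitals. They are Pes1 (chr11:3963965-3963994, plus strand), Utp4 (chr8:106893643-106893672, plus strand), Wdr43 (chr17:71616220-71616249, plus strand), Utp20 (chr10:88826765-88826789, minus strand) and Mybbp1a (chr11:72441355-72441376, plus strand).
Pes1: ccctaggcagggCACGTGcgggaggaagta
Utp4: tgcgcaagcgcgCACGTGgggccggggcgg
Wdr43: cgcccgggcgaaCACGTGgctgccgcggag
Utp20: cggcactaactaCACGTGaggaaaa
Mybbp1a: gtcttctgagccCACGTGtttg
The KO over WT ratios of these 5 genes over all cells ran from -0.29 for Mybbp1a to -0.10 for Pes1. A match shows only that these letters are present, and binding was not measured here.

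On the map (GRCm38, GENCODE M21), Nhp2 (ENSMUSG00000001056) lies at chr11:51619735-51623714 on the plus strand and Dkc1 (ENSMUSG00000031403) at chrX:75095854-75109777 on the plus strand. Ncl (ENSMUSG00000026234) lies at chr1:86344719-86359400 on the minus strand and Npm1 (ENSMUSG00000057113) at chr11:33152287-33163206 on the minus strand. None of the 38 members was overlapped on its own strand by another gene of the matrices. In 8 members (Polr1b, Fbl, Nop56, Nop58, Wdr12, Mrto4, Noc2l and Npm1) the last 300 bases of a transcript matched another gene over at least 90 bases at 95% identity or more, and in Polr1b, Nop58, Wdr12 and Noc2l some of these other genes are in the matrices. The counts of the 8 are uncertain to the extent that such reads were split or dropped.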

How the data were processed

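Single-cell RNA was measured with 10x Chromium Next GEM 3′ v3.1 in 1 Phf6 KO and 1 WT library. The matrices hold raw UMI counts per gene and barcode as deposited by the authors; they were made with Cell Ranger, version 6.0.2 per the file headers and 3.0.1 per the submitters' processing notes, which name GRCm38. No source used here names the annotation release, and the vector was left out of all steps.

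Cells with at least 500 genes and at most 10% mitochondrial UMIs were kept (32 KO and 51 WT barcodes had too few genes, and 298 KO and 534 WT too many mitochondrial UMIs). Simulated doublets scored each barcode, and 221 KO and 224 WT barcodes were removed, at 0.8% per 1000 barcodes. Cells were clustered on 2000 variable genes, without the members and without mitochondrial, ribosomal protein, haemoglobin and sex-linked genes, with 30 principal components, 15 neighbours and Leiden resolution 1 (scanpy 1.11.5, leidenalg 0.10.2). A cluster took a class name from markers, and classes with at least 40 and clusters with at least 50 cells per library were compared. Phases were called after thinning to 5000 UMIs, which left out 202 KO and 237 WT cells.

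Counts were summed per library and class and given as CPM with exact 95% Poisson intervals. Log2 ratios have exact conditional binomial intervals. A gene entered at a mean of at least 10 CPM, and 1.5-fold was the size called. No test was made, since cells are not replicates, and free RNA was not removed. PCR and capture add error that these intervals do not cover. Genes with full values are the 5 highest and 5 lowest members of each comparison, up to 3 of each other list by size, Myc, and the 8 genes most like the members. The members and lists were chosen with earlier results of these data known. Near-identical ends were searched with BLAST 2.17.0, and TMM factors came from edgeR 4.0.16. The summing and ratio steps were checked on simulated data. Alternatives changed scaling, filters, clustering, phase weights and doublets.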

Additional observations from a re-analysis of the deposited data

Results flagged for a closer look

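A few members had intervals on opposite sides of 0 in different classes or, for Heatr1, in a class and in a pool of classes. The differences between classes were not tested. Tcof1 had a KO over WT log2 ratio of 0.20 in erythroid-like cells and -0.43 in megakaryocyte-like cells. Heatr1 had -0.17 in HSC/MPP-like cells and 0.12 in committed cells without the erythroid-like class. Npm1 had 0.19 in basophil or mast cell-like cells and -0.48 in megakaryocyte-like cells. Rrp1 had 1.20 in B cell-like cells, from 51 KO and 22 WT UMIs, and -0.23 in megakaryocyte-like cells.

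In committed cells the summed members had a KO over WT log2 ratio of 0.022 in G1, -0.40 in S and -0.34 in G2/M. The difference between phases was not tested. Committed cells included 66 erythroid-like cells in the KO library and 194 in the WT library. Of these, 28 KO and 103 WT cells were called S, and 38 KO and 85 WT cells G2/M. Without erythroid-like cells the summed ratio was 0.016 in G1, -0.12 in S and -0.12 in G2/M. Plasma cell-like cells, 4 in KO and 49 in WT among those called G1, stayed in both sets of values. Their cluster had the members at 404 CPM in KO and 838 CPM in WT. Its part in the G1 ratio was not tested.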

How the results depend on the processing

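Over all cells the members' median KO over WT ratio of -0.22 was below 0 in 12 of 12 alternatives. It was -0.30 with median-of-ratios scaling, -0.17 as a mean per cell, -0.29 from summed UMIs and -0.15 without erythroid-like cells. In HSC/MPP-like cells it was below 0 in 15 of 15, from -0.29 to -0.18. The 1 member at least 1.5-fold lower there became 0 with doublets kept, with cell cycle phases weighted alike, at resolution 2 and with clusters of the class weighted alike.

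In committed cells the KO over WT median of -0.28 was -0.07 without erythroid-like cells.

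The stem-like over committed medians depended on the setting. The KO value of 0.06 was -0.17 with median-of-ratios scaling, -0.14 with TMM factors, 0.23 as a mean per cell and 0.19 with phases weighted alike. Without erythroid-like cells it was 0.17. The WT value of -0.01 was -0.16 with median-of-ratios scaling, -0.16 with TMM factors, -0.083 from summed UMIs, 0.25 as a mean per cell, 0.14 with phases weighted alike, 0.33 without erythroid-like cells and 0.16 with committed classes weighted alike. These scalings also moved the median of all genes, to -0.10 (median of ratios) and -0.07 (TMM) against 0.13 in the KO library, and to -0.04 and -0.05 against 0.10 in the WT library. Each of these scalings moved every ratio of a library by the same amount. The cause of the other differences between settings was not tested. Leaving out erythroid-like cells and weighting committed classes or the clusters of the HSC/MPP-like class alike were chosen after seeing the data.

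No paired analysis was possible because each genotype has 1 library. Small classes limit single members: Polr1b had 1 UMI in KO dendritic cell-like cells.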
